A study of Rattus norvegicus with 4 samples.

Results

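The iron-sulfur cluster assembly genes are the rat genes Nfs1, Lyrm4, Iscu, Hscb, Glrx5, Isca1, Isca2 and Ciao1, which act from the release of sulfur to the delivery of finished clusters. They were found as the non-control probes whose RefSeq accession maps to one of these symbols. Of the 8 genes, 7 had such a probe among the 16581 named genes of the array, with 10 probes of 45598 in all. No probe was matched to Lyrm4 by this rule, and its level was not analysed here. Isca1, Isca2 and Glrx5 had 2 probes each, and the other 4 genes 1 probe each. Each of the 10 probes had 1 spot per array.

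The cells were NR8383, a line of alveolar macrophages that was started from the lung lavage of a rat and was used here after 20 passages. They had been kept for 4 h with the iron oxide particle NRCWE018 (Fe2O3) at 2 µg/mL. RNA of 4 such cultures, biological replicates by the study's design, was read on 1 array each. Unexposed cultures were not analysed here, so nothing below measures what the particles did, and the question that can be addressed is which of these genes were above background in exposed macrophages and how far they differed between exposed cultures. The 4 arrays lay at 4 positions of 1 slide, so culture and position cannot be told apart.

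Iron-sulfur clusters are small cofactors of iron and sulfide that carry electrons, bind substrates or hold protein structure in place. They are built on a scaffold protein in the mitochondrial matrix from sulfur taken from cysteine, handed over by chaperones and carriers, and, for proteins outside the organelle, completed by a cytosolic targeting machinery. In macrophages, as in other cells, cytosolic aconitase is also the iron sensor IRP1, which binds RNA when its cluster is missing, so cluster assembly is one of the links between iron supply and iron gene regulation.

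All 7 measured genes were above background in every exposed culture. A probe was counted as above background where the scanner software marked its spot as well above background, and all 10 probes carried this mark on all 4 arrays. The same held for 8376 of the 16581 named genes, or 50.5%, taking for each gene its best detected probe. Of the macrophage markers Cd68, Csf1r, Lyz2, Spi1, Ptprc and Itgam, 6 of 6 were above background on all 4 arrays, and of the lung epithelium markers Sftpc, Sftpb, Epcam and Cdh1, 0 of 4 were above background on any. Fibroblast markers (0 of 3), T cell markers (0 of 3) and the granulocyte markers with a probe (0 of 2) were likewise not above background, whereas 2 of 3 endothelial markers, Pecam1 and Cdh5, were. Cdh5 was dim, at a processed signal of 46.7 to 55.1 over the 4 arrays, and Pecam1 was at 477 to 837. The processed signal at the 75th percentile lay between 756 and 1082 over the 4 arrays, and replicate 4 had the lowest. Of all probes, between 37.8% and 41.2% were well above background.

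Levels are given first as processed signal intensity, in replicate order 1 to 4, and then as log2 of that signal minus log2 of the 75th percentile of its array, with the mean and SD of the 4 cultures. A level on this scale above 0 means brighter than 3 in 4 spots of the array. Signals of different probes depend on the probes as well as on the transcripts, so genes are not ranked by level.

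Nfs1, the cysteine desulfurase that releases the sulfur for every cluster, had a processed signal of 1257, 1263, 1211 and 800 in replicates 1 to 4. On the log2 scale it was at 0.23, 0.36, 0.16 and 0.08, a mean of 0.21 ± 0.12 (SD, n = 4). Replicate 4 was thus low in signal but close to the other cultures once the array's own brightness was taken off. The partner of Nfs1, the LYR-motif protein Lyrm4 that keeps the desulfurase stable, was not analysed.

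Iscu, the scaffold on which new clusters are assembled, had a signal of 3464, 3559, 3405 and 3010. Its log2 level was 1.69, 1.85, 1.65 and 1.99, a mean of 1.80 ± 0.16 (SD, n = 4). The scaled level was highest on replicate 4, the array on which the unscaled signal was lowest. Hscb, the J-domain co-chaperone that recruits the HSP70-type chaperone Hspa9 to the loaded scaffold, had a signal of 1599, 1779, 2208 and 1379. It lay at 0.58, 0.85, 1.03 and 0.87 on the log2 scale, a mean of 0.83 ± 0.19 (SD, n = 4), with replicate 3 highest and replicate 1 lowest.

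Glrx5, the monothiol glutaredoxin that carries clusters away from the scaffold, was read by 2 probes of the same accession. The probe A_42_P581060 had a signal of 4988, 4599, 5414 and 3553 and a log2 level of 2.22, 2.22, 2.32 and 2.23, a mean of 2.25 ± 0.05 (SD, n = 4). Its highest and lowest cultures differed 1.08-fold, the narrowest range among the 10 probes. The probe A_44_P1085487 was dim, at a signal of 61.2, 46.3, 52.7 and 38.0 and a log2 level of -4.30 ± 0.12 (SD, n = 4). The probes of this gene therefore disagree on its level by over 6 log2 units, and which of them reads the transcript better was not tested.

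Isca1 and Isca2, the A-type proteins that act late in the mitochondrion in making the larger clusters for proteins such as lipoate synthase, had the probes of widest range. Isca2 probe A_44_P1370619 had a signal of 3436, 2608, 2455 and 1693, and a log2 level of 1.68, 1.41, 1.18 and 1.16, a mean of 1.36 ± 0.24 (SD, n = 4). Its other probe, A_64_P030198, was at 1.78, 1.64, 1.37 and 1.71, a mean of 1.62 ± 0.18 (SD, n = 4). Both Isca2 probes were highest on replicate 1 and lower on replicate 3, and they disagreed on replicate 4, which was the lowest culture for A_44_P1370619 and the second highest for A_64_P030198.

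For Isca1, probe A_64_P022751 had a signal of 4026, 5256, 5553 and 3390, and a log2 level of 1.91, 2.42, 2.36 and 2.16, a mean of 2.21 ± 0.23 (SD, n = 4). Probe A_44_P1136719 was at 0.53, 0.67, 0.35 and 0.65, a mean of 0.55 ± 0.15 (SD, n = 4). Replicate 2 was highest for both, but the lowest culture was replicate 1 for A_64_P022751 and replicate 3 for A_44_P1136719. The order of cultures within Isca1 and Isca2 therefore depended on the probe.

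Ciao1, a WD-repeat protein of the cytosolic targeting complex that passes clusters to proteins of DNA metabolism, had a signal of 2008, 2073, 2257 and 1597. Its log2 level was 0.91, 1.07, 1.06 and 1.08, a mean of 1.03 ± 0.08 (SD, n = 4). Replicate 1 lay below the other cultures, which were within 0.02 of each other.

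**Figure D1:**
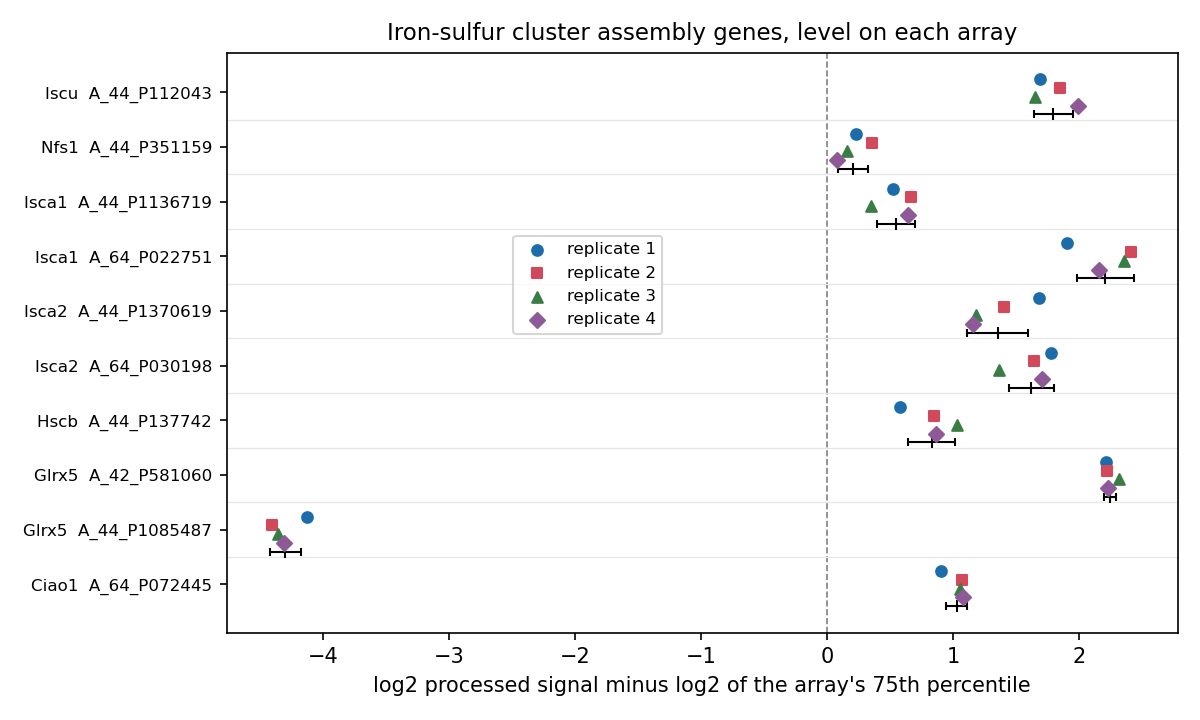
Level of each of the 10 probes on each array, as log2 processed signal minus log2 of the array's 75th percentile (dashed line at 0), with the mean and SD over 4 arrays drawn in black under the points. Of the 10 probes, 9 lie above 0 on every array, and the dim Glrx5 probe lies near -4.30.

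The promoter windows of 7 of the 8 genes were at hand from RefSeq (build GRCr8), each holding 250 bases before and 50 after the start. They were searched on both strands for 5 letter strings: the CCAAT box (CCAAT), the GC box (GGGCGG), the cAMP response element (TGACGTCA), the core of the antioxidant response element (TGACNNNGC), and AAGATGGCG, a string found near start sites and known as a binding sequence of YY1. The strings do not overlap in the matches shown. CCAAT was found in 4 of the 7 windows (Isca2, Glrx5, Hscb and Isca1), beside 37.5% of 33469 windows of the same length, and GGGCGG in 5 of 7 (Ciao1, Isca2, Iscu, Isca1 and Lyrm4), beside 33.1%. AAGATGGCG was found in Isca2 and Iscu, beside 1.73% of all windows, TGACGTCA in Iscu, beside 1.83%, and TGACNNNGC in Isca1 and Lyrm4, beside 12.1%. The 7 windows were between 57.7% (Glrx5) and 67.7% (Isca1) G or C, beside a median of 51.7% over all windows. The shares over all windows were not matched for this, which bears most on GGGCGG. The strings were chosen with some of these windows in view, so the counts are descriptions, and a match is neither a site nor a cause.

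The windows of Isca2, of Glrx5 and of the scaffold gene Iscu are shown because they belong to the probes of widest and narrowest range and to the centre of the pathway. Capitals mark matches, on either strand, to each of these strings but the antioxidant response element core. Isca2 (chr6:110149343-110149642, plus strand) holds CCAAT 3 times and GGGCGG 6 times, Glrx5 (chr6:129752944-129753243, plus strand) holds CCAAT 4 times, and Iscu (chr12:48518647-48518946, minus strand) holds the GC box, the cAMP response element and the YY1 string 1 time each. They read in the direction of the gene, 5′ to 3′.
Isca2: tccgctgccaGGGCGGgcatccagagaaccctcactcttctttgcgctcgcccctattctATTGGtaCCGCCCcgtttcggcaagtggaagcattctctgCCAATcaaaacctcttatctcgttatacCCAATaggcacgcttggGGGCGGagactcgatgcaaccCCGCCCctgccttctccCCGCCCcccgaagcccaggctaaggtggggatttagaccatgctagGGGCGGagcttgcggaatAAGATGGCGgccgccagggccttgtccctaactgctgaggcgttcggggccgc
Glrx5: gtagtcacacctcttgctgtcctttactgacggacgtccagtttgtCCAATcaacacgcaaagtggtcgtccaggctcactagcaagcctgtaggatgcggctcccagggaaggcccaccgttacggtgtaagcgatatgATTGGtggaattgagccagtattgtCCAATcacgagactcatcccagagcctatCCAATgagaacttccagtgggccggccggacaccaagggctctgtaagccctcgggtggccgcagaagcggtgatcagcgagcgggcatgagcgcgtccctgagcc
Iscu: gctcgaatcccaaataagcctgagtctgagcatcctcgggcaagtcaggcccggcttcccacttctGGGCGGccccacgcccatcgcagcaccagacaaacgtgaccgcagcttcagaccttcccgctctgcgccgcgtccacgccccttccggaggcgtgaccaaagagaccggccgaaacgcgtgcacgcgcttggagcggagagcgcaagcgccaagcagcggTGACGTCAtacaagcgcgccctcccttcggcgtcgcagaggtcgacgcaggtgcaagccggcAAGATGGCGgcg

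The differences between exposed cultures were small for all 7 genes. The SD over the 4 arrays ranged from 0.05 to 0.24 log2 units over the 10 probes, with a median of 0.15, beside a median of 0.19 over the 16659 probes well above background on all 4 arrays, and it exceeded that median in 2 of the 10. The range between the highest and the lowest culture had a median of 0.33 log2 units, or 1.26-fold, beside 0.42, or 1.34-fold, over all tested probes. Neither of these medians over all tested probes was matched for level. The widest range, in Isca2 probe A_44_P1370619, was 0.52 log2 units, or 1.43-fold, and 64.0% of tested probes had a range no wider than this.

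Whether any probe differed between cultures by more than probes of like level do was tested with limma, by setting each variance against a prior variance fitted as a trend on level (upper-tail F test, Benjamini-Hochberg adjustment over all 16659 probes). Of the 10 probes, 0 passed at an adjusted p of 0.05 and 0 had an unadjusted p under 0.05, beside 28 of 16659, or 0.168%, and 984, or 5.91%, of all tested probes. The lowest p was that of Isca2 probe A_44_P1370619, at 0.187 (adjusted p 0.994 in limma's test), with an SD of 0.24 against a prior SD of 0.17 at its level. Isca1 probe A_64_P022751 followed at 0.191 (adjusted p 0.994). The SD exceeded the prior SD in 4 of the 10 probes. The median prior SD at the levels of the 10 probes was 0.18, beside their median SD of 0.15. With 4 arrays the precision of each SD is limited, and a p that misses the threshold does not show that the cultures were alike. The count of 28 was 56, 11, 18 and 53 without replicates 1, 2, 3 and 4, and 304 after normexp background correction. The count of member probes was 0 in each of these. Called probes were a small share of all tested in each, so 0 among 10 probes was likely in any case.

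**Figure D2:**
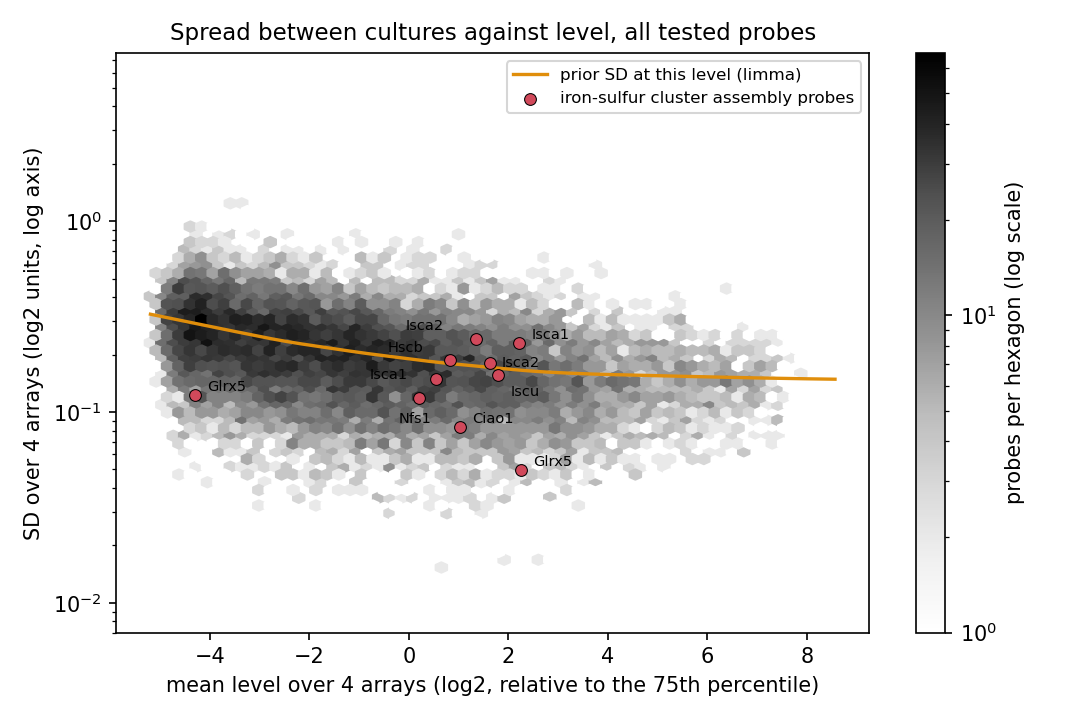
SD over 4 arrays (log axis) against mean log2 level for the 16659 tested probes, in grey hexagons shaded by number of probes, with the prior SD as a line and the 10 iron-sulfur cluster assembly probes as labelled points. The points lie between 0.05 and 0.24, 4 of them above the line.

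The spread of these genes was also read beside the error that the scanner software gives for 1 spot. That error was 0.14 log2 units for 9 of the probes and 0.21 for the dim Glrx5 probe. It hardly varied among the 9, so their SDs were set against close to 1 fixed value. The SD between cultures was above this error in 6 probes and at or under it in 4, namely Nfs1, Ciao1 and both Glrx5 probes. The share of all tested probes above their error was not computed. Repeat spots of 1 probe on the same array varied less than that error, with a median SD of 0.07 log2 units over 1036 probes spotted 10 times. The median SD between cultures of the 10 probes was 0.15, and the source of this spread was not tested. No spot of the 10 probes was marked as an outlier on any array.

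The order of the cultures changed with the scaling between arrays. Before scaling, the processed signal was lowest on replicate 4 for 10 of 10 probes, beside 74.6% of all tested probes, which were 12433 of 16659. After the array's 75th percentile was taken off, replicate 4 was lowest for 2 of the 10 and highest for 2, beside 14.4% and 38.1% of tested probes. Replicate 1 was then highest for 3 and lowest for 4, beside 18.2% and 32.3% of tested probes. Replicate 2 was highest for 3 and lowest for 1, beside 23.7% and 21.0%. Replicate 3 was highest for 2 and lowest for 3, beside 20.0% and 32.3%. The median deviation of the 10 probes from their own means was -0.03, 0.05, -0.05 and 0.01 log2 units on replicates 1 to 4, beside -0.04, 0.01, -0.03 and 0.08 for all tested probes. No culture was therefore high or low across the genes after scaling, and the unscaled signal was lowest on the array with the lowest 75th percentile.

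**Figure D3:**
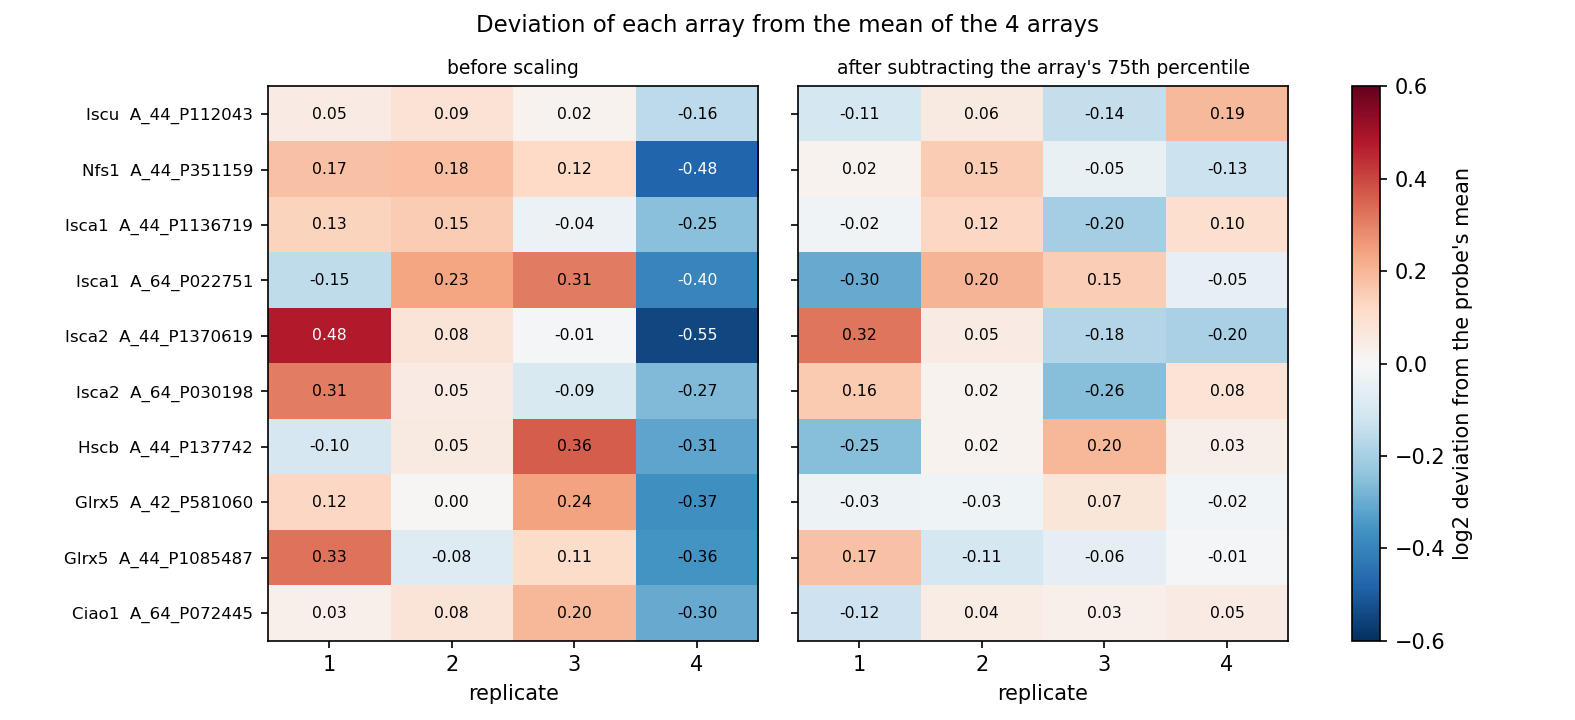
Log2 deviation of each array from the probe's own mean over 4 arrays, for the 10 probes, before scaling (left) and after subtracting the array's 75th percentile (right), from blue (below the mean) to red (above it). The column of replicate 4 is blue for all 10 probes on the left, and on the right 5 of its values are above 0 and 5 below.

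Among named genes outside the list, those whose deviations over the 4 arrays were most like those of Isca2 probe A_44_P1370619 were Lst1, Arl2 and Rfx1. Their root mean square differences from it were 0.01, 0.03 and 0.03 log2 units, the smallest among 10339 probes compared over 4 arrays. With 4 arrays such a likeness is a description of these cultures only.

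The other genes of the pathway were above background to a like extent. Of 55 listed genes 48 had a probe, and 47 of these were above background on all 4 arrays, beside 50.5% of all named genes. Among the partners of the core machinery 5 of 5 were detected, including Ndufab1, the acyl carrier protein that joins the desulfurase complex, at 3.42 ± 0.23 (SD, n = 4), and the ferredoxin Fdx1 at 2.42 ± 0.14. For late mitochondrial transfer 7 of 7 were detected, including the carrier Nfu1 at 2.63 ± 0.13. Iba57, a partner of the A-type proteins, was at 4.25 ± 0.22 by probe A_64_P136362. Its other probe, A_44_P335752, was also above background on all 4 arrays, but at -2.33 ± 0.26. Which of the Iba57 probes reads the transcript better was not tested. In the cytosolic assembly list 9 of 9 were detected, with the scaffold ATPases Nubp1 at 1.62 ± 0.14 and Nubp2 at 3.94 ± 0.10.

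Proteins that carry the clusters were also detected. Of the mitochondrial ones 14 of 14 passed this mark on every array, including the succinate dehydrogenase subunit Sdhb, at 3.45 ± 0.07 (SD, n = 4). Of the cytosolic and nuclear ones 12 of 13 were, with cytosolic aconitase, Aco1, at 2.94, 2.76, 2.60 and 3.05 in replicates 1 to 4. The exception was Dpyd, an enzyme of pyrimidine breakdown, which was above background on no array.

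The median SD of the 50 tested probes of these genes was 0.14, beside 0.19 for all tested probes, which was not matched for level. Of the 50, 0 passed the limma test of excess spread and 1 had an unadjusted p under 0.05. The probe with that p was Abce1, a ribosome recycling factor with clusters, which was at -1.32, -1.22, -0.75 and -0.44 in replicates 1 to 4 (p 0.0377, adjusted p 0.777 in limma's test). Its SD of 0.41 was the highest of the 50, with replicates 3 and 4 above replicates 1 and 2.

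**Figure D4:**
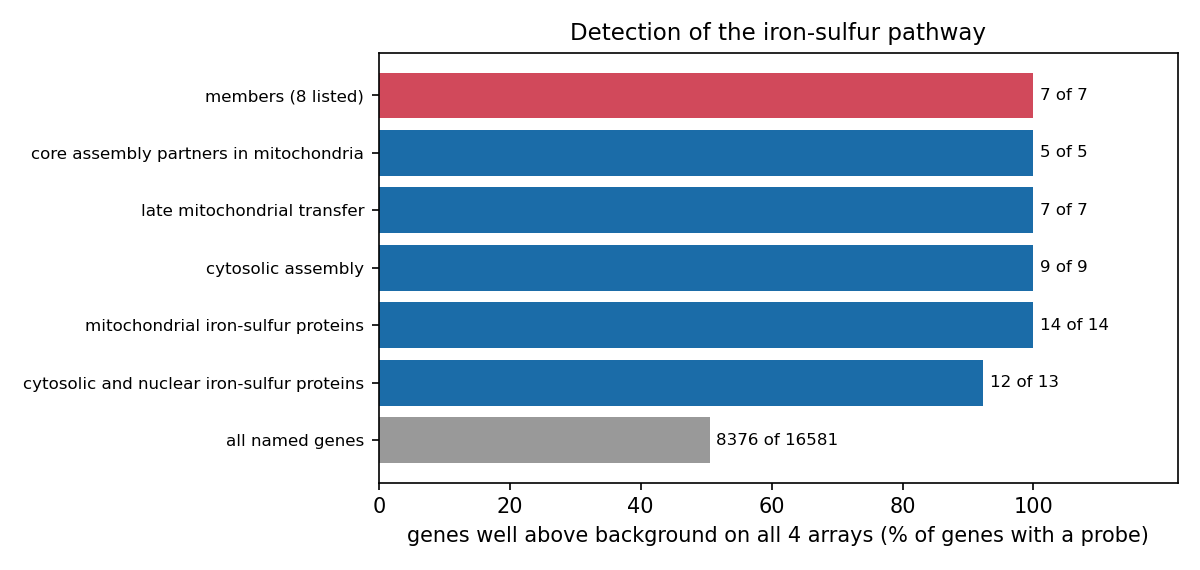
Genes well above background on all 4 arrays as a percentage of the genes with a probe, for the 7 measured iron-sulfur cluster assembly genes (top bar), the other lists of the pathway, and all named genes (bottom bar). The counts beside the bars run from 7 of 7 for the members to 12 of 13 for the cytosolic and nuclear proteins, above 8376 of 16581 for all named genes.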

How the data were processed

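Per the labels' protocols, Cy3-labelled cRNA of each culture was put on a rat array of Agilent's, read in 1 colour. The deposited intensity values came from Agilent Feature Extraction, version 11.0.1.1 in the submitters' processing notes. Per the file headers, the processed signal was background-subtracted and spatially detrended within each array, not scaled between arrays, and the other deposited columns used are median spot and background intensity, the signal's error and flags of 0 or 1. The headers give rn4 as the build behind the grid.

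Control spots and, where another spot of the probe remained, spots marked as outliers were not used (58717 spots are not controls). From log2 signal the 75th percentile of the array was subtracted (over non-control spots without an outlier mark), and spots of a probe were averaged. Accessions were matched without version to the RefSeq genes of GRCr8, which named 21109 of 45598 probes. A gene counted as above background where its best detected probe was. No pair of arrays held identical values.

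The test of excess spread used limma (3.58.1, under R 4.3.3 with data.table, version 1.17.8) and was checked on simulated data. It called 55% of 100 simulated probes whose SD was raised 5-fold and 92% of 100 raised 10-fold. Smaller rises in SD were not simulated. All 8 genes are described with every probe; of the other pathway genes the first 2 with a probe in each list, those above background on no array and those past the test are named, and Abce1, Pecam1 and Cdh5 were named after their values were seen. The members and lists were chosen with earlier results of these data known. Alternatives were normexp, quantile scaling, the percentile over probes above background, outlier spots kept, other priors, no filter, 1 probe per gene, another detection mark and leaving out each array. The planned normexp used median spot intensity, because the files used here hold no mean signal. With 1 group there is no comparison of conditions, and the number of arrays limits the precision.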

Additional observations from a re-analysis of the deposited data

Results flagged for a closer look

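Dixon's test at the 95% level was applied to the 4 arrays of 23 probes, 3 of them chosen for their likeness to Isca2 probe A_44_P1370619. The nominal rate by chance alone is about 1 in 20, and the share over all tested probes was not computed. The count below is therefore not read as an excess. In 5 of the 23 probes a single array lay apart. Among the 10 probes of the assembly genes 2 did: Glrx5 probe A_42_P581060 stood at 2.32 on replicate 3, above 2.22, 2.22 and 2.23 on replicates 1, 2 and 4, and Ciao1 stood at 0.91 on replicate 1, below values between 1.06 and 1.08. Among the other pathway genes, Fdx1 stood at 2.21 on replicate 1, below the other arrays, and Nfu1 and Sdhb stood at 2.44 and 3.35 on replicate 3, below the other arrays. These gaps were small in size: the whole range over the 4 arrays was 0.10 for this Glrx5 probe, 0.17 for Ciao1, 0.31 for Fdx1, 0.28 for Nfu1 and 0.15 for Sdhb, in log2 units.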

How the results depend on the processing

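All 7 measured genes stayed above background with the positive and significant mark, with every probe of the gene required, with at least 1 array required and without each replicate in turn. For the other pathway genes the count of 47 was 43 when every probe had to be above background, and 47 otherwise. No member probe passed the test of excess spread under any of its 12 alternatives, where the lowest p was 0.083, without replicate 4, and the lowest adjusted p 0.955, with no filter on dim probes. Called probes were a small share of all tested in every setting, so 0 among the member probes says little about their stability. The count over all probes changed with the setting: 28 became 304 with normexp and 12 with a constant prior. It was 872 with no filter on dim probes (of 45598 tested) and 16 with 1 probe per named gene (of 8376 tested). When 1 replicate was left out it lay between 11 and 56 (56, 11, 18 and 53 without replicates 1 to 4). Some of these settings also changed the number of probes or arrays, and the cause of the shifts was not tested. The median SD of the 10 probes lay between 0.13 and 0.17 without each replicate. Mean levels moved by more than their SD in 10 of 10 probes with the percentile over probes above background, which shifted the median of tested probes by -3.40 log2 units, in 7 with outlier spots kept (shift -0.16) and in 4 with normexp (shift 0.13), and in 0 with quantile scaling. The 4 with normexp did not all follow that median shift. Iscu, Ciao1 and Glrx5 probe A_42_P581060 moved down, to 1.57, 0.91 and 2.11. The dim Glrx5 probe moved up, from -4.30 to -3.06. The culture of highest level was the same in 8 of 10 probes after normexp, and in 9 of 10 with quantile scaling, the percentile over probes above background, or outlier spots kept. No paired analysis was possible because the samples form 1 group. With 4 arrays, signal over background limits the dim Glrx5 probe most, at 38.0 to 61.2.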

Other observations

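Probes of the same pathway gene disagreed on detection in 4 genes, Ndufab1, Mms19, Lias and Rsad2, which are named after their values were seen. Lias, which makes lipoate and spends a cluster to do so, was at 0.34 ± 0.08 (SD, n = 4) by the probe above background on all 4 arrays, and its other probe was above background on none. The DNA metabolism targeting factor Mms19 was at -0.52 ± 0.15 by its detected probe, and its other probe was above background on 2 arrays. Hspa9, the mitochondrial HSP70-type chaperone that works with Hscb, was not picked by the naming rule. Both of its probes were highest on replicate 3, at 2.49 and 1.17, with ranges of 0.53 and 0.36 log2 units. Hscb was also highest there, as were 20.0% of all tested probes. The lowest culture differed: replicate 4 for Hspa9 probe A_44_P1089776, at 1.96, and replicate 2 for A_44_P1151830, at 0.81. Replicate 4 was at 1.12 by A_44_P1151830. Hscb was lowest on replicate 1. Neither probe of Hspa9 passed the limma test of excess spread (adjusted p 0.998 for each).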
